A study of Mus musculus with 7 samples.

Results

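The 34 genes described here encode complement components and their regulators, and all 34 were found by symbol among the 22564 genes of the deposited mouse liver table. Of these, 33 passed the filter on low values and were tested. The remaining one, Cfd, is listed at 0 in every library. The libraries are bulk liver RNA of C57bl/6 mice. In 4 of them the treatment is labelled PTH, parathyroid hormone, which raises blood calcium, and in 3 it is labelled PBS, phosphate-buffered saline. No dose, duration or age is given in the labels used here. Sample titles abbreviate PTH libraries as C+P and PBS libraries as C and do not say what C, which both groups carry, stands for. Whether the libraries come from different mice is not stated, so the p-values cover the spread between these libraries, which may be technical.

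Complement is a cascade of plasma proteins, most of them made by hepatocytes. The classical pathway starts when C1q binds antibody or debris and the proteases C1r and C1s cut C4 and C2. The lectin pathway starts when mannose-binding lectins, ficolins or collectins bind sugars and the MASP proteases cut the same substrates. Both routes cut C3, the alternative pathway amplifies that step through factors B, D and properdin, and C5 to C9 then form the membrane attack complex. C1q is an exception to the hepatocyte origin, since macrophages, which in liver are mainly Kupffer cells, are its known main source.

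Of the 33 tested complement genes, 9 fell in PTH livers and 0 rose, by limma on log2(FPKM + 0.5) with Benjamini-Hochberg adjustment over all tested genes and a threshold of 0.05. FPKM is a level per length of transcript and per mapped depth of the library. Over all 11861 tested genes, 2.37% fell and 22.8% rose. The 9 were the C1q chain genes C1qa, C1qb and C1qc, the opsonin precursors C3 and C4b, the lectin genes Mbl1 and Fcna, the properdin gene Cfp and the membrane attack gene C6. Their fitted levels in PTH livers were between 0.398 and 0.518 of those in PBS livers. With an unadjusted p under 0.05 there were 14 genes, of which 2 were higher in PTH livers. The median log2 change of the 33 genes was -0.32, beside 0.55 for all tested genes, and 22 of the 33 had a negative change, where 21.8% of all tested genes did. Every PTH library lay below every PBS library for 13 of the 33 genes, beside 3.2% of tested genes. The reverse held for 2 of the 33, C8g and Cd59a, beside 32.9% of tested genes.

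The libraries differ in a way that touches every value below. Estimated reads ran from 1621708 to 3281569 in PTH livers and from 1200715 to 2556696 in PBS livers, and the all-gene median of 0.55 shows that most genes were listed higher in PTH livers. After each library was scaled to a common median, 17 of the 33 genes were called lower and 0 higher, beside 5.25% and 3.25% of all tested genes. Under that scaling 30 of the 33 changes were negative, beside 51.7% of all tested genes. All 9 genes named above were among the 17, and the other 8 were C1ra, C2, Colec11, Cfb, Hc, Serping1, C4bp and Vtn. Quantile scaling called 13 members lower and 0 higher, beside 4.3% and 3.94% of tested genes, and 29 of the 33 changes were negative, beside 46.9%. The deposited scaled counts gave 10 members lower and 1 higher, beside 2.61% and 31.3% of tested genes, with 22 negative changes, beside 20.1%. Leaving out a library as deposited gave 11 members called lower without PTH 1, 1 without PTH 2, 4 without PTH 3, 6 without PTH 4, 2 without PBS 1, 2 without PBS 2 and 5 without PBS 3. Without PBS 2, 1 member, Mbl2, was called higher, and 0 were without any other library. Tests over all genes lost calls too, with 119 genes called lower without PTH 2, 144 without PBS 1 and 159 without PBS 2, against 281 with every library. With 4 libraries against 3, the exact two-sided permutation test cannot go below 0.0571, a value that 15 of the 33 genes reached. These are the 13 lower and 2 higher genes without overlap between the groups, beside 3.2% and 32.9% of all tested genes. All 18 hepatocyte markers passed the filter, with summed levels of 28743 to 48931 FPKM in PTH livers and 20232 to 42727 FPKM in PBS livers. As deposited 2 of them fell and 0 rose, beside 2.37% and 22.8% of all tested genes.

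**Figure D1:**
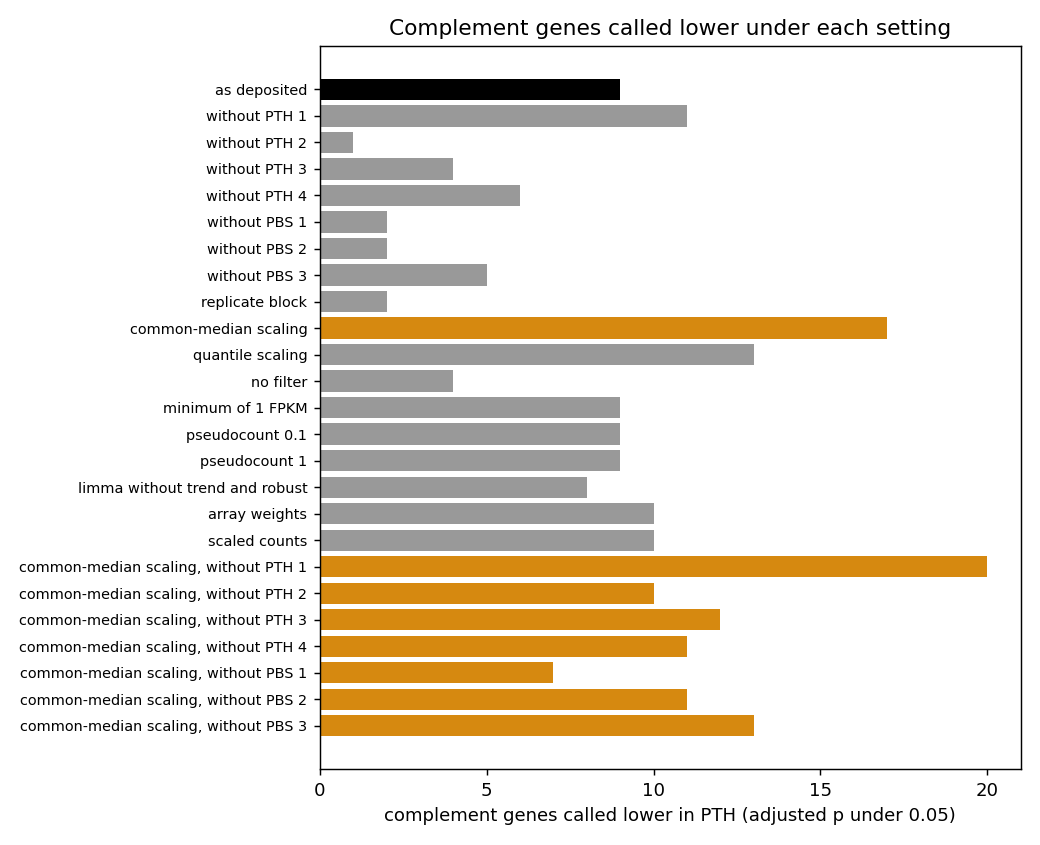
Number of complement genes called lower in PTH livers (adjusted p under 0.05) under each setting, as horizontal bars, with the values as deposited in black, common-median scaling in orange and other settings in grey. The count is 9 as deposited, 1 without PTH 2 and 17 under common-median scaling.

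Together the 34 genes made up 1.499%, 1.29%, 1.93% and 1.70% of the summed FPKM in PTH 1 to 4, against 2.59%, 2.56% and 2.72% in PBS 1 to 3. The groups did not overlap in this share, which does not depend on the scaling between libraries. C3, the central component that all pathways cut, was the most abundant member in both groups. It held 34.0%, 33.7%, 40.4% and 35.7% of the members' FPKM in PTH 1 to 4, against 44.4%, 42.4% and 51.5% in PBS 1 to 3. Vtn and Clu came next in both groups, at 708 ± 65.3 and 612 ± 97.9 FPKM in PTH livers (SD, n = 4) and 1069 ± 228 and 762 ± 133 FPKM in PBS livers (SD, n = 3). In PTH livers the ranges of Vtn and Clu overlapped, and in PBS livers they did not. The lowest levels among the tested members were those of the receptor genes C3ar1 and C5ar1.

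**Figure D2:**
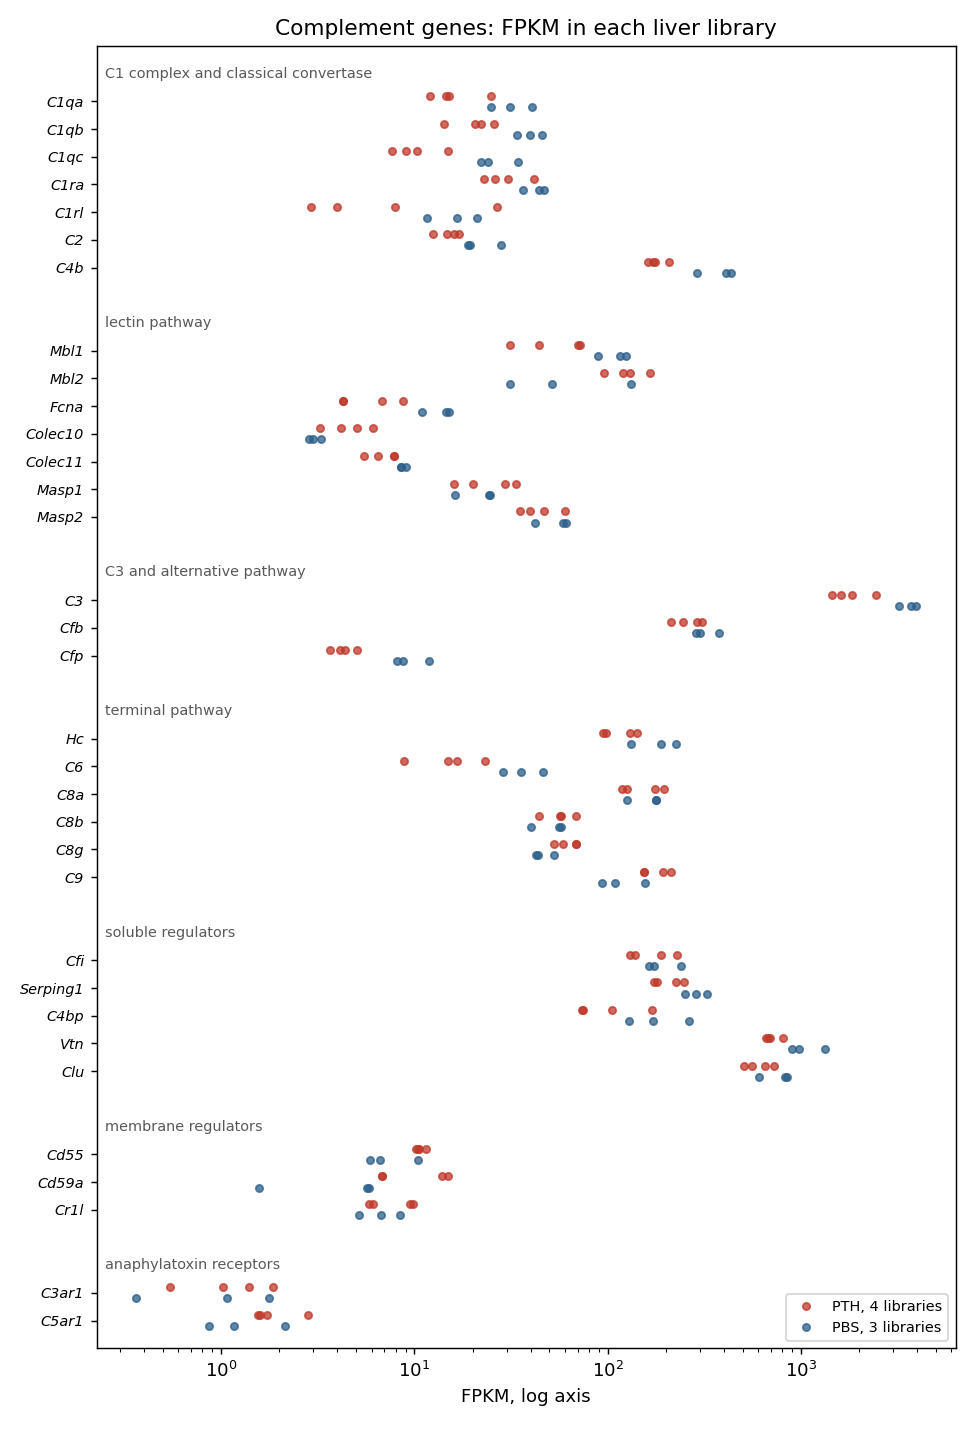
FPKM (log axis) of the 33 tested complement genes, grouped by role, with 1 point per library, PTH above PBS in each row. The levels span from 0.362 FPKM (C3ar1 in PBS 2) to 3964 FPKM (C3 in PBS 1).

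Of the 9 genes that fell, RefSeq promoter windows (GRCm38.p6, 250 bases before the annotated start to 50 after it) were at hand for C1qb, C1qc, C3, Cfp, C6, Fcna and Mbl1, and for 25 of the 34 members in all. Those of C1qb (chr4:136886151-136886450, minus strand), C1qc (chr4:136892865-136893164, minus strand), Fcna (chr2:25627925-25628224, minus strand) and Cfp (chrX:20931506-20931805, minus strand) are shown because these 4 genes are known as leukocyte-expressed members that fell together, and C3 (chr17:57228087-57228386, minus strand) because it is the most abundant. Capitals in the first 4 mark GAGGAA or its reverse complement TTCCTC, the core bound by the myeloid factor PU.1, and in C3 they mark the C/EBP-type pattern TTNNGNAA and the NF-kappaB-type pattern, which is GGG and CC with 5 bases between them, on either strand.
C1qb: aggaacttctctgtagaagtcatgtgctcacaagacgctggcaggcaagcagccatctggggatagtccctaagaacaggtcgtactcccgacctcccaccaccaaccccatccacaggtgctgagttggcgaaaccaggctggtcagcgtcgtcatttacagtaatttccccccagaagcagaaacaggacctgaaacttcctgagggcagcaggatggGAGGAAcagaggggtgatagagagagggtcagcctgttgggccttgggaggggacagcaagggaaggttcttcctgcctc
C1qc: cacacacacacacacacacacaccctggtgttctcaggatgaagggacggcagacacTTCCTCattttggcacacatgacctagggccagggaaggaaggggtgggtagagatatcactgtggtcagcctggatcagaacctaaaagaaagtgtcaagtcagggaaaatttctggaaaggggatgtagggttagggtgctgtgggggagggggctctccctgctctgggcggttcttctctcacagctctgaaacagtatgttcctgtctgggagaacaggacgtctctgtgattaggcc
Fcna: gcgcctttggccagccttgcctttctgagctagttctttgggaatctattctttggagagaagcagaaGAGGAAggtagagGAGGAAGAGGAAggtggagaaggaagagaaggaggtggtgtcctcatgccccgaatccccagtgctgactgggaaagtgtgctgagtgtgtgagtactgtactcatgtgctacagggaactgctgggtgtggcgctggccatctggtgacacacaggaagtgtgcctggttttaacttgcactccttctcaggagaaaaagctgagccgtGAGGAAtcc
Cfp: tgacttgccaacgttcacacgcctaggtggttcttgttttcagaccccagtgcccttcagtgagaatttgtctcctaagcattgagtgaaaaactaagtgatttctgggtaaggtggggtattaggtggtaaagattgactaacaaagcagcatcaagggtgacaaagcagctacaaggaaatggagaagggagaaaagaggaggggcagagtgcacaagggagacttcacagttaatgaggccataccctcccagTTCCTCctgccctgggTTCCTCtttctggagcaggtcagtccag
C3: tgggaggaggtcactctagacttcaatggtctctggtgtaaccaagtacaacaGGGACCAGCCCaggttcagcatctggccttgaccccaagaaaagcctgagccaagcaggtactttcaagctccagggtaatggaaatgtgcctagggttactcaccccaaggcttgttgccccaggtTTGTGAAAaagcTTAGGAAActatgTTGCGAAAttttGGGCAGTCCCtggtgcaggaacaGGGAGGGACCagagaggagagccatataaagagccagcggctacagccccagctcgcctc
A GAGGAA match is in 28.3% of the 32851 RefSeq promoter windows. Of the 25 members with a window, 6 have it, namely C1qb, C1qc, C1ra, Fcna, Cfp and Cd59a. The 4 windows shown were picked by the fall of their genes, so their shared match is no measure of how common it is. The windows of C3ar1 and C5ar1, myeloid receptor genes that did not pass the test, hold no GAGGAA match. Neither do those of C3, C6 and Mbl1, which fell, while C1ra and Cd59a hold it and did not pass as deposited. Whether the match has a part in these changes was not tested. TTNNGNAA is in 40.7% of windows and in those of 11 members, and the NF-kappaB-type pattern is in 50.8% of windows and in those of 10 members. The C3 window holds 3 TTNNGNAA matches between 70 and 45 bases before the start. In the same window 2 of the 4 NF-kappaB-type matches, on opposite strands, overlap each other and form 1 run of capitals. The STAT pattern TTCNNNGAA is in 8.3% of windows and in those of C1ra, Colec11, Masp2, C8a and Vtn. None of these passed the test as deposited, and C1ra, Colec11 and Vtn were called lower under a common median. The cyclic AMP response element TGACGTCA, in 1.79% of windows, was found in the window of 0 members, and its half-site TGACG, in 20.8% of windows, in those of C1qb, Masp2, C4bp and Cd55. The interferon response pattern, GAAA and GAAA with 2 bases between them, in 3.44% of windows, was found for Colec11, Vtn and Cd59a, and the HNF1 pattern, GTTAAT and ATT with 1 base between them, in 0.399% of windows, for Hc and C4bp. These are matches of letters in short windows, not binding sites.

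The C1q genes lie side by side on chromosome 4 and encode the chains that assemble into the recognition molecule of the classical pathway. C1qa (GRCm38, GENCODE M21, 136895917 to 136898803) had 24.8, 15.1, 12.003 and 14.6 FPKM in PTH 1 to 4, against 40.5, 24.8 and 31.1 FPKM in PBS 1 to 3. PTH 1 and PBS 2 nearly met for C1qa, at 24.811 and 24.814 FPKM. For C1qb (136880129 to 136886187) the values were 25.7, 22.0, 14.3 and 20.471 FPKM in PTH 1 to 4, against 39.7, 33.9 and 45.5 FPKM in PBS 1 to 3. C1qc (136889804 to 136893065) had 15.0, 10.3, 9.05 and 7.64 FPKM in PTH 1 to 4, against 34.5, 22.1 and 23.9 FPKM in PBS 1 to 3. PTH 1 was the highest PTH library for each chain, and for C1qb and C1qc all PTH libraries lay clearly below all PBS libraries. The log2 changes were -0.95 (SE 0.30, limma adjusted p = 0.0408) for C1qa, -0.95 (SE 0.27, limma adjusted p = 0.0283) for C1qb and -1.33 (SE 0.30, limma adjusted p = 0.0123) for C1qc. C1qc was called in 17 of 17 alternatives. C1qb lost its call without PTH 2, PTH 3, PBS 1, PBS 2 or PBS 3, with limma adjusted p from 0.0521 to 0.092, and C1qa lost it without any library other than PTH 1, with limma adjusted p from 0.0554 to 0.127. The sum of the 3 chains was 65.5, 47.4, 35.4 and 42.7 FPKM in PTH 1 to 4, against 114.8, 80.8 and 100.6 FPKM in PBS 1 to 3.

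Of 18 Kupffer cell and macrophage markers, 6 fell, 2 rose and 10 did not pass the test, and none was at 0 in all libraries. Over all tested genes 2.37% fell and 22.8% rose, so the rises were a smaller share of the markers than of all genes. Clec4f, a lectin that marks mouse Kupffer cells, fell to 9.84 ± 2.11 FPKM in PTH livers (SD, n = 4), against 34.7 ± 13.8 FPKM in PBS livers (SD, n = 3), and Cd163, a scavenger receptor, fell to 2.35 ± 1.08 FPKM in PTH livers, against 9.60 ± 2.75 FPKM in PBS livers. Vsig4, the Kupffer cell receptor for C3 fragments, fell to 5.44 ± 1.95 FPKM in PTH livers, against 15.9 ± 3.10 FPKM in PBS livers. Each of these 3 passed the test whichever library was left out. Cd68, a lysosomal macrophage protein, rose to 28.6 ± 12.3 FPKM in PTH livers, against 6.71 ± 1.70 FPKM in PBS livers, and the other rise was that of Slc40a1, the iron exporter ferroportin. Under a common median 9 of the 18 markers were called lower and 0 higher, beside 5.25% and 3.25% of all tested genes. The limma adjusted p of Cd68 was then 0.0653. The summed level of the 18 markers overlapped between the groups, with 221 to 283 FPKM in PTH livers and 239 to 372 FPKM in PBS livers. The ratio of C1qb to Clec4f was 2.18, 1.96, 2.00 and 2.22 in PTH 1 to 4, against 0.951, 0.778 and 2.42 in PBS 1 to 3, so that the groups overlapped. The part of macrophage number in the C1q values was not tested. In bulk liver, fewer cells of a type and less RNA per cell cannot be told apart.

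**Figure D3:**
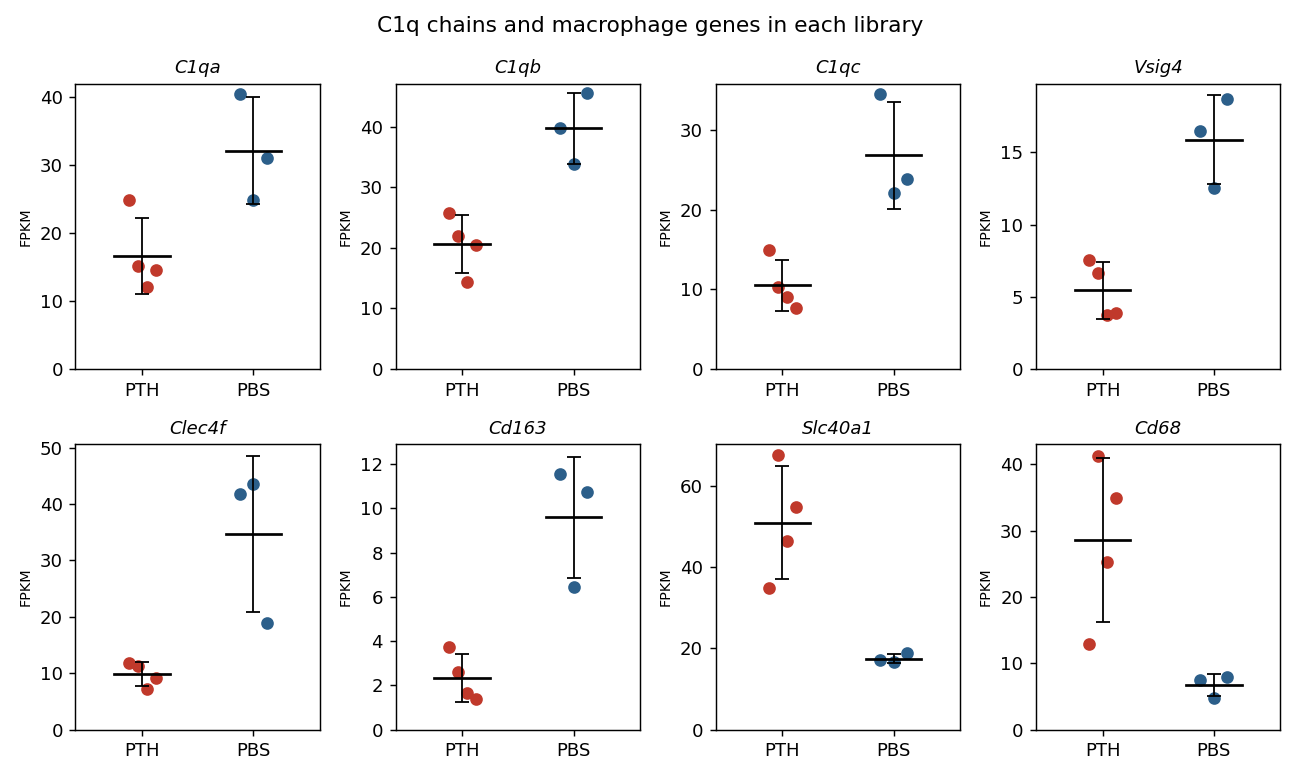
FPKM of the C1q chain genes, Vsig4 and 4 macrophage markers, with 1 point per library, a line at the group mean and SD bars, 4 PTH and 3 PBS libraries. C1qc and Vsig4 do not overlap between the groups, and Cd68 is higher in every PTH library.

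Among the other classical pathway genes, C4b fell and C1ra, C1rl and C2 did not pass the test. C4b (chromosome 17, 34728380 to 34743882), which encodes the C4 protein whose fragment tags targets, had 176, 171, 209 and 163 FPKM in PTH 1 to 4, against 412, 434 and 291 FPKM in PBS 1 to 3. All 4 PTH libraries were close to each other and below the lowest PBS library. The log2 change of C4b was -1.06 (SE 0.26, limma adjusted p = 0.0167), and this p was 0.0546 without PTH 2 and 0.0583 without PBS 2. C2, the protease partner of C4b, had 15.1 ± 1.94 FPKM in PTH livers (SD, n = 4) and 22.1 ± 5.18 FPKM in PBS livers (SD, n = 3), log2 change -0.52 (SE 0.26, limma adjusted p = 0.149). C1ra, a C1r protease gene, had 30.4 ± 8.10 FPKM in PTH livers and 42.5 ± 5.32 FPKM in PBS livers, log2 change -0.50 (95% interval -1.10 to 0.09). C1rl, a C1r-like protease gene, had 26.7, 3.97, 7.90 and 2.90 FPKM in PTH 1 to 4, against 16.7, 21.047 and 11.6 FPKM in PBS 1 to 3. PTH 1 was the highest of all libraries for C1rl while the other PTH libraries were below every PBS library, and the log2 change was -1.10 (SE 0.59, limma adjusted p = 0.177). It was -1.71 without PTH 1 (limma adjusted p = 0.0101), -0.71 without PTH 4 (limma adjusted p = 0.371) and -1.68 under a common median (limma adjusted p = 0.108). The table gives C1ra and C1rl the same locus as 8 other genes, and C2 and Cfb the same locus as 2 others, so reads could be split between neighbours there.

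Of the 7 lectin pathway genes, 2 were called lower and 0 higher as deposited, beside 2.37% and 22.8% of all tested genes. Their changes were negative for 4 of the 7, beside 21.8% of all tested genes. Under a common median 6 of the 7 were negative, beside 51.7%. Mbl1 (chromosome 14, 41151458 to 41159601), a mannose-binding lectin, had 69.8, 44.2, 71.8 and 31.3 FPKM in PTH 1 to 4, against 115, 124 and 88.6 FPKM in PBS 1 to 3. Every PTH library was below every PBS library, and the log2 change was -1.07 (SE 0.33, limma adjusted p = 0.0356). Its call was lost without PTH 2, PTH 4, PBS 1, PBS 2 or PBS 3, with limma adjusted p from 0.0578 to 0.102. Mbl2 (chromosome 19, 30232942 to 30239687), the second mannose-binding lectin, had 165, 131, 119 and 96.1 FPKM in PTH 1 to 4, against 51.7, 133 and 31.2 FPKM in PBS 1 to 3. PBS 2 lay among the PTH libraries, while PBS 1 and PBS 3 were lower than all of them. The log2 change of Mbl2 was 1.06 (SE 0.42, limma adjusted p = 0.0841), and it did not pass the test. It was 1.63 without PBS 2 (limma adjusted p = 0.0178), 0.60 without PBS 3 (limma adjusted p = 0.312) and 0.49 under a common median (limma adjusted p = 0.479). The ratio of Mbl2 to Mbl1 within a library was 2.36, 2.97, 1.66 and 3.07 in PTH 1 to 4, against 0.448, 1.07 and 0.352 in PBS 1 to 3. The ratio, chosen after its values were seen, is free of the scaling between libraries and did not overlap between the groups.

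Fcna, a ficolin that mouse macrophages of liver and spleen make, had 8.74, 6.81, 4.26 and 4.29 FPKM in PTH 1 to 4, against 15.0, 14.6 and 10.9 FPKM in PBS 1 to 3. All PTH libraries were lower than all PBS libraries, with a log2 change of -1.15 (SE 0.31, limma adjusted p = 0.0246). Without PTH 2, PTH 3, PBS 1 or PBS 2 the limma adjusted p of Fcna was between 0.054 and 0.0736. Fcna shares its listed locus with 3 other genes. The collectin genes Colec10 and Colec11, whose products form a joint lectin, had 4.65 ± 1.23 and 6.94 ± 1.14 FPKM in PTH livers (SD, n = 4) and 3.05 ± 0.232 and 8.72 ± 0.273 FPKM in PBS livers (SD, n = 3). Neither passed the test as deposited (limma adjusted p = 0.228 and 0.366), and Colec11 was called lower under a common median (log2 change -0.90, limma adjusted p = 0.0398). The ratio of Colec10 to Colec11 was 0.414, 0.782, 0.913 and 0.638 in PTH 1 to 4, against 0.366, 0.332 and 0.351 in PBS 1 to 3, with no overlap. For the MASP protease genes the log2 changes were 0.16 (95% interval -0.53 to 0.84) for Masp1 and -0.25 (95% interval -0.86 to 0.35) for Masp2, whose listed locus also holds Tardbp. Under a common median the change of Masp1 had the other sign, at -0.42.

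**Figure D4:**
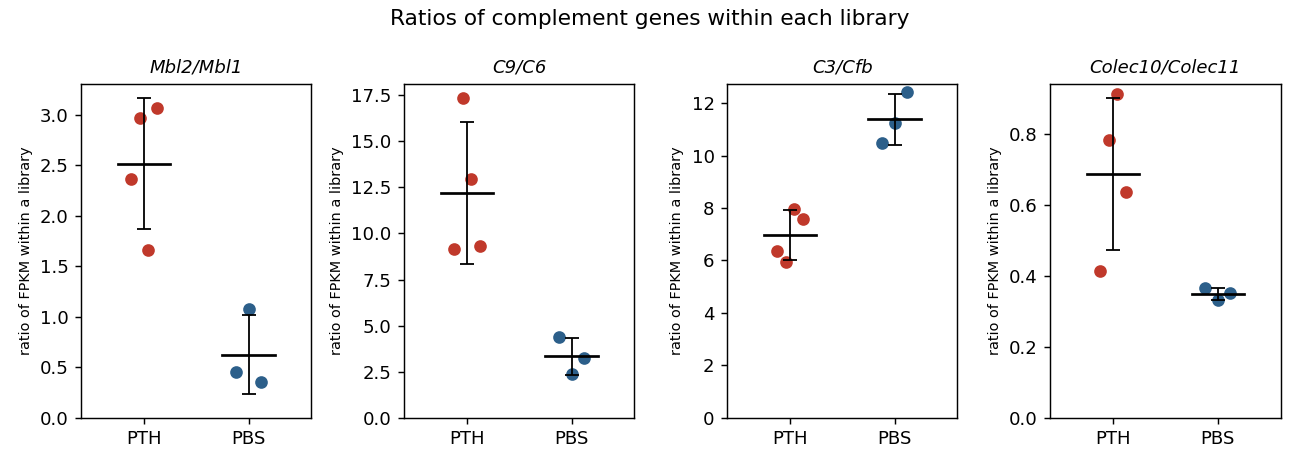
Ratio of FPKM of pairs of complement genes within each library, with 1 point per library, a line at the group mean and SD bars, 4 PTH and 3 PBS libraries. Mbl2/Mbl1, C9/C6 and Colec10/Colec11 are higher, and C3/Cfb is lower, in every PTH library than in every PBS library.

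C3 (chromosome 17, 57203970 to 57228136) had 1847, 1451, 2445 and 1610 FPKM in PTH 1 to 4, against 3964, 3237 and 3724 FPKM in PBS 1 to 3. The highest PTH library, PTH 3, stayed below the lowest PBS library, PBS 2. The log2 change was -1.01 (SE 0.28, limma adjusted p = 0.026), and it lay between -1.16 and -0.91 when single libraries were left out. Its limma adjusted p was between 0.054 and 0.0822 without PTH 2, PTH 4, PBS 1, PBS 2 or PBS 3, and 0.105 under quantile scaling. Cfb, the protease that forms the alternative convertase with C3b, had 291, 244, 307 and 212 FPKM in PTH 1 to 4, against 378, 288 and 299.8 FPKM in PBS 1 to 3. The ranges overlapped, with PTH 1 and PTH 3 above PBS 2. Cfb did not pass the test, with a log2 change of -0.29 (SE 0.26, limma adjusted p = 0.413). The ratio of C3 to Cfb within a library was 6.35, 5.95, 7.96 and 7.59 in PTH 1 to 4, against 10.5, 11.2 and 12.4 in PBS 1 to 3, and the groups did not overlap.

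Cfp, which encodes properdin, the leukocyte-made protein that stabilises the alternative convertase, had 5.02, 3.64, 4.12 and 4.36 FPKM in PTH 1 to 4, against 11.9, 8.12 and 8.73 FPKM in PBS 1 to 3. The PTH libraries were close together and all lower than the PBS libraries. The log2 change of Cfp was -1.06 (SE 0.28, limma adjusted p = 0.0206), with limma adjusted p from 0.0519 to 0.0668 without PTH 2, PTH 3 or PBS 1. Of 14 neutrophil markers 9 were tested, and 5 of these fell while the other 4 did not pass, where 2.37% of all tested genes fell. The summed level of the 14 was 6.12, 10.2, 39.6 and 4.42 FPKM in PTH 1 to 4, against 855, 78.4 and 176 FPKM in PBS 1 to 3. PBS 1 was far above all other libraries in this sum and was also the highest library for Cfp. Within the PTH group the highest library was PTH 3 for the sum and PTH 1 for Cfp. Among the markers Ly6g was listed at 0 in all libraries. The part of neutrophils or macrophages in the change of Cfp was not tested. Cfp shares its listed locus with 5 other genes. Cfd, the factor D gene known for its expression in fat cells, was listed at 0 in both units in all 7 libraries, on a locus that the table gives to 46 genes, of which 43 had values above 0. A listed 0 there can be a failed estimate, so no change is given for Cfd. Of 10 fat cell markers, Adipoq, Plin1, Lep, Retn and Cidea were at 0 in all libraries, and the other 5 had values. By the test 2 of these 5 were higher and 0 lower, beside 22.8% and 2.37% of all tested genes. Under a common median 1 of the 2 was still called higher. One of the 2, the lipid droplet gene Cidec, rose to 15.8 ± 10.6 FPKM in PTH livers (SD, n = 4), against 1.34 ± 1.27 FPKM in PBS livers (SD, n = 3). The other, Car3, overlapped between the groups and lost its call without PBS 3 or any PTH library, with limma adjusted p up to 0.127. The summed level of the 10 was 86.8 to 168 FPKM in PTH livers and 44.6 to 86.9 FPKM in PBS livers. The part of fat cells in these levels was not tested.

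In the terminal pathway, C6 was the one gene of 6 that fell. C6 (chromosome 15, 4727175 to 4814967), the second protein to join the membrane attack complex, had 23.2, 8.83, 14.9 and 16.6 FPKM in PTH 1 to 4, against 35.6, 46.2 and 28.6 FPKM in PBS 1 to 3. PTH 1, the highest of its group, was below PBS 3, the lowest of the other. The log2 change was -1.24 (SE 0.33, limma adjusted p = 0.0233). This p lay between 0.0521 and 0.0804 without PTH 2, PTH 3, PBS 1 or PBS 2. The table lists C6 on a locus shared with Plcxd3. Hc, which encodes C5, had 116 ± 23.8 FPKM in PTH livers (SD, n = 4) and 182 ± 47.3 FPKM in PBS livers (SD, n = 3), log2 change -0.63 (SE 0.29, limma adjusted p = 0.117).

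C9 (chromosome 15, 6445327 to 6498751), the protein that polymerises into the pore, had 212, 154, 193 and 155 FPKM in PTH 1 to 4, against 156, 109 and 93.0 FPKM in PBS 1 to 3. PBS 1 lay within the PTH range, and the other 2 PBS libraries lay below it. The log2 change of C9 was 0.60 (SE 0.27, limma adjusted p = 0.124), near the all-gene median of 0.55, and 0.02 under a common median. The ratio of C9 to C6 was 9.14, 17.4, 12.9 and 9.31 in PTH 1 to 4, against 4.38, 2.37 and 3.25 in PBS 1 to 3. That ratio was higher in all PTH libraries. The C8 genes encode the chains of 1 protein. Their log2 changes were -0.07 (95% interval -0.69 to 0.55) for C8a, 0.14 (95% interval -0.43 to 0.72) for C8b and 0.42 (95% interval -0.11 to 0.95) for C8g. C8g had 68.3, 68.8, 58.5 and 53.0 FPKM in PTH 1 to 4, against 42.4, 52.8 and 43.8 FPKM in PBS 1 to 3, with PTH 4 just above PBS 2. C8g shares its listed locus with Fbxw5, and C8a shares its own with Gm17662. C8b and C8g had the other sign under a common median, at -0.43 and -0.16.

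**Figure D5:**
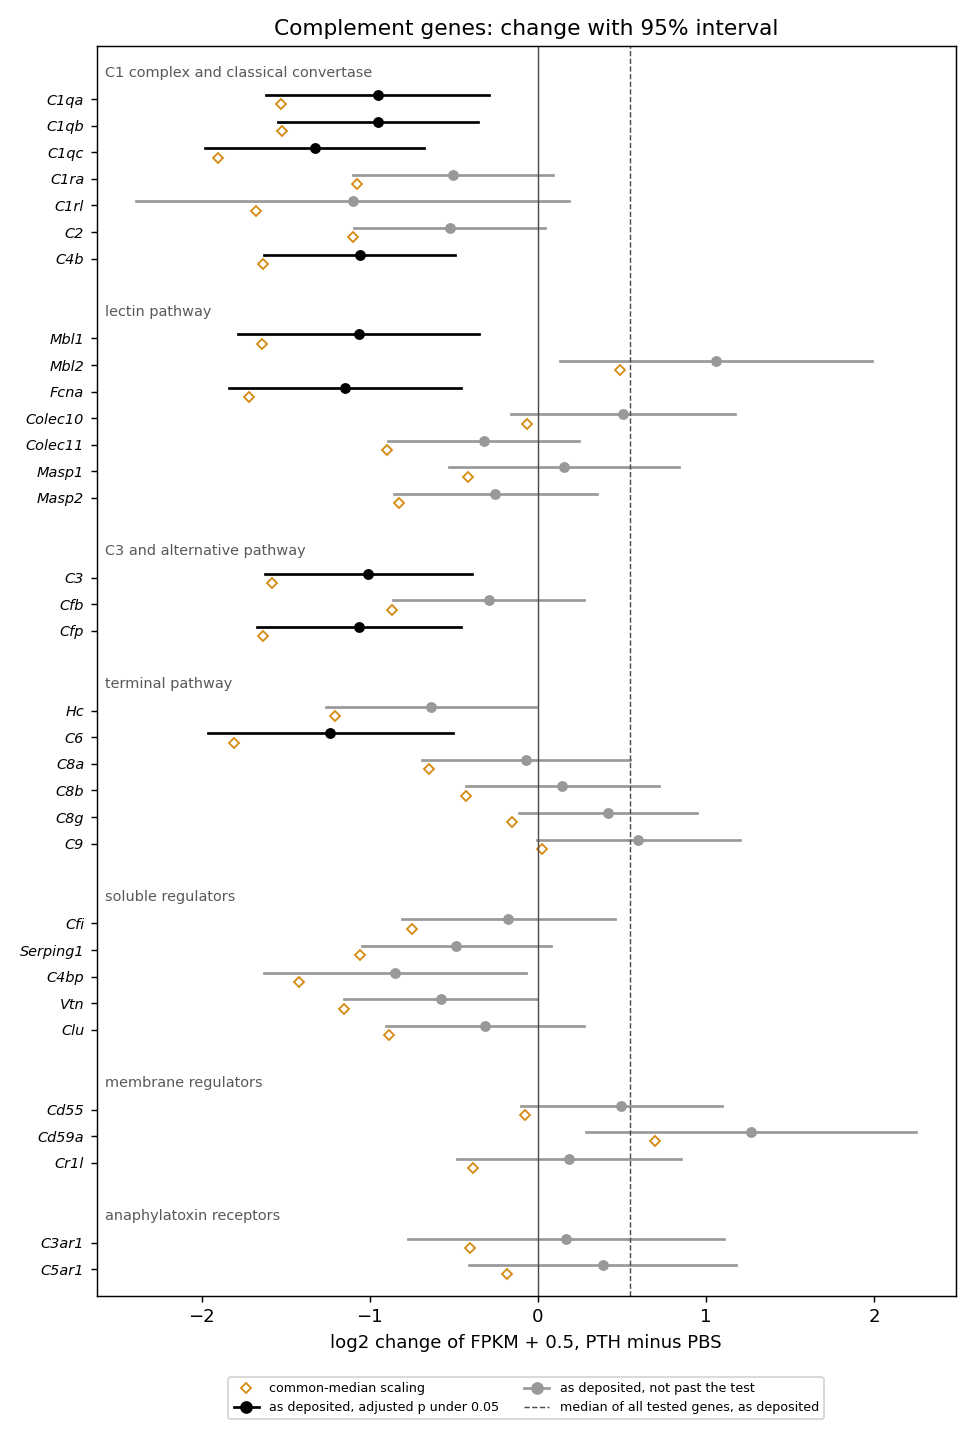
Log2 change of FPKM + 0.5, PTH minus PBS, for the 33 tested complement genes by role. Filled points with 95% intervals are the values as deposited (black, adjusted p under 0.05), open diamonds are the values under common-median scaling, and the dashed line is the median of all tested genes, 0.55. The 9 black points lie between -1.33 and -0.95.

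None of the 5 soluble regulator genes passed the test as deposited, while all 5 had negative changes, beside 21.8% of all tested genes. Under a common median 3 of them, Vtn, Serping1 and C4bp, were called lower, beside 5.25% of all tested genes. Vtn encodes vitronectin, which blocks insertion of the membrane attack complex, and had 692, 659, 804 and 676 FPKM in PTH 1 to 4, against 1328, 980 and 899 FPKM in PBS 1 to 3. The groups did not overlap for Vtn, with a log2 change of -0.58 (SE 0.26, limma adjusted p = 0.119). Serping1, the C1 inhibitor gene, had 247, 174, 226 and 181 FPKM in PTH 1 to 4, against 327, 287 and 252 FPKM in PBS 1 to 3. PTH 1 came close to PBS 3 without reaching it, and the log2 change was -0.48 (SE 0.26, limma adjusted p = 0.175). C4bp, whose product helps factor I to cut C4b, had 106 ± 44.5 FPKM in PTH livers (SD, n = 4) and 188 ± 68.1 FPKM in PBS livers (SD, n = 3), log2 change -0.85 (SE 0.36, limma adjusted p = 0.0963). Without PTH 1, the highest PTH library, its limma adjusted p was 0.028, and with the other libraries left out in turn it reached 0.278. Clu, the gene of clusterin, had a log2 change of -0.31 (95% interval -0.90 to 0.27), and Cfi, the gene of the protease factor I, had -0.18 (95% interval -0.81 to 0.46).

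The membrane regulators, which protect host cells, had positive changes that did not pass the test. Most genes had positive changes as deposited, with negative ones for 21.8% of all tested genes. The changes of Cd55 and Cr1l lay below the all-gene median of 0.55. Cd59a, which blocks C9 polymerisation, had 13.9, 14.9, 6.81 and 6.81 FPKM in PTH 1 to 4, against 5.69, 5.82 and 1.58 FPKM in PBS 1 to 3. All PTH libraries were above all PBS libraries, with PTH 1 and PTH 2 far above PTH 3 and PTH 4, and the estimate in PBS 3 rests on about 6 reads. The log2 change of Cd59a was 1.27 (SE 0.45, limma adjusted p = 0.0584), 0.69 under a common median (limma adjusted p = 0.303) and 1.35 with scaled counts (limma adjusted p = 0.0228). Without PBS 3 it was 0.74 (limma adjusted p = 0.214). The table lists Cd59a on the same locus as Cd59b. Cd55, the decay-accelerating factor, had 10.7 ± 0.547 FPKM in PTH livers (SD, n = 4) and 7.64 ± 2.42 FPKM in PBS livers (SD, n = 3), and Cr1l, the rodent convertase inhibitor also called Crry, had 7.82 ± 2.13 FPKM in PTH livers and 6.75 ± 1.61 FPKM in PBS livers. Their log2 changes, 0.50 (95% interval -0.10 to 1.10) and 0.19 (95% interval -0.48 to 0.85), had the other sign under a common median, at -0.08 and -0.39.

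The anaphylatoxin receptor genes are expressed by myeloid cells and were low in all libraries. C3ar1, the receptor for C3a, had 1.40, 1.02, 0.543 and 1.85 FPKM in PTH 1 to 4, against 1.76, 0.362 and 1.07 FPKM in PBS 1 to 3. C5ar1, the receptor for C5a, had 1.55, 1.73, 2.81 and 1.58 FPKM in PTH 1 to 4, against 2.13, 1.16 and 0.867 FPKM in PBS 1 to 3. The groups overlapped for both. The log2 changes were 0.17 (95% interval -0.77 to 1.11) for C3ar1 and 0.39 (95% interval -0.41 to 1.18) for C5ar1, and under a common median -0.41 and -0.19.

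Outside the 34 members, 30 of 31 further complement genes were matched in the table and 23 tested, of which 6 fell and 4 rose, where 2.37% of all tested genes fell and 22.8% rose. The 4 rises are a smaller share of the 23 than the rises over all genes. The pentraxin gene Apcs had a log2 change of -2.81 (SE 0.55). Cpn2, the gene of the non-catalytic subunit of carboxypeptidase N, had -2.24 (SE 0.51). Cpn1, the gene of its catalytic subunit, did not pass the test, at -0.06 (limma adjusted p = 0.881). Cpb2, the gene of another plasma carboxypeptidase that trims anaphylatoxins, had -1.16 (SE 0.32). Vsig4, given above, fell as well. The scavenger collectin gene Colec12 rose to 52.4 ± 19.1 FPKM in PTH livers (SD, n = 4), against 9.06 ± 4.20 FPKM in PBS livers (SD, n = 3), log2 change 2.49 (SE 0.39), and was the one of the 4 rises still called under a common median. C1qbp and Thbd rose with log2 changes of 1.22 (SE 0.29) and 1.20 (SE 0.35). Calls were lost for Thbd without PTH 2, PTH 3, PBS 1, PBS 2 or PBS 3, for Cpb2 without PTH 2, PBS 1 or PBS 3 and for C1qbp without PTH 2 or PBS 2, with limma adjusted p up to 0.086, 0.0798 and 0.0558.

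Among 17 tested genes of regulators of complement transcription, 3 rose and 0 fell, a smaller share of rises than the 22.8% over all tested genes. Irf1, an interferon-induced factor, had 15.3 ± 1.32 FPKM in PTH livers (SD, n = 4) and 7.95 ± 3.57 FPKM in PBS livers (SD, n = 3), and Nfkb1 and Ifngr1 were the other 2, each with calls lost without 5 of the 7 libraries and none called under a common median. Under a common median 0 of the 17 were called higher and 3 lower, beside 3.25% and 5.25% of all tested genes. Of 16 stress genes listed with tissue handling in mind, 7 fell, 0 rose and 9 did not pass, where 2.37% of all tested genes fell. Their summed levels were 159 to 229 FPKM in PTH livers and 468 to 1374 FPKM in PBS livers. Whether handling or treatment changed these genes was not tested, nor was their part in the complement values.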

How the data were processed

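Bulk liver RNA was sequenced from 7 samples, grouped by their treatment label into 4 PTH and 3 PBS libraries. The table deposited by the authors gives FPKM for each gene and library, per the file headers, and a second block headed count. That deposited count block is a scaled signal rather than whole reads. From 91.8% to 93.8% of its values per library were whole multiples of 1 library-specific step, with a tolerance of 0.05. No count test was therefore run, and block totals divided by the step gave the estimated reads. Bowtie 0.12.2 and mm8 are named per the submitters' processing notes, and how FPKM was computed is not stated in the labels. Printed gene positions are those of GENCODE M21 on GRCm38, joined by gene identifier, and 26.0% of genes share a listed locus with other genes, 12 of the 34 members among them.

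Members were matched by symbol. The fit covered log2(FPKM + 0.5) of genes that reached 0.5 FPKM in 3 or more libraries, by limma 3.58.1 (R 4.3.3, trended and robust empirical Bayes), and p-values were adjusted by Benjamini-Hochberg across all of them. The pseudocount shrinks the changes of low genes. The fit was also run on simulated data with independent genes and no shift between libraries. Such a run does not test how library differences affect the calls. Exact permutation tests used SciPy 1.17.1, and plots used matplotlib 3.10.9 with Python 3.11.15. Every member is named. Beyond them, other complement genes and transcription regulators past the threshold are named, at most 8 each by smallest p, and at most 4 markers of a cell type with those at 0. Cpn1 is named as well, as the partner of Cpn2. A gene among these is not reported here. Members, lists and tests were chosen with earlier results of these data known. The alternatives tried were leaving out each library, a block for the replicate number, common-median or quantile scaling, dropping the filter or raising it to 1 FPKM, pseudocounts of 0.1 or 1, plain empirical Bayes, array weights, and the scaled counts (pseudocount and minimum both 5). Leaving out libraries under common-median scaling was added after seeing the data.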

Additional observations from a re-analysis of the deposited data

Results flagged for a closer look

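C5ar1 had 2.812 FPKM in PTH 3, far from the other PTH libraries, which lay between 1.55 and 1.73 FPKM. The gap was 0.856 of the range of the 4 libraries, above the critical value of Dixon's test for 4 values. Of the 33 members examined in this way it was the 1 that stood out, and chance alone marks about 1 group in 20.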

How the results depend on the processing

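The number of members called lower, 9 as deposited, was 17 under common-median scaling, 4 with no filter, 2 with the replicate block, 1 to 11 with a library left out and 7 to 20 with a library left out under common-median scaling. The number called higher, 0 as deposited, was 1 with the replicate block or the scaled counts, 0 to 1 with a library left out and 1 under common-median scaling without PBS 2. Of the other complement genes, the 4 higher became 2 with the block, 1 under common-median or quantile scaling, 2 with no filter, 1 to 4 with a library left out and 0 to 1 with a library left out under common-median scaling. The 6 lower became 3 with no filter, 3 to 6 with a library left out and 3 to 8 with a library left out under common-median scaling. Raising the filter and both other pseudocounts moved no member across the threshold. Log2 changes of members not past the test took the other sign under common-median scaling for Colec10 (-0.0668), Masp1 (-0.42), C8b (-0.43), C8g (-0.16), Cd55 (-0.0762), Cr1l (-0.39), C3ar1 (-0.41) and C5ar1 (-0.19). They did so under quantile scaling for Colec10 (-0.0333), Masp1 (-0.37), C8b (-0.28), Cd55 (-0.0931), Cr1l (-0.40), C3ar1 (-0.19) and C5ar1 (-0.0167), and with array weights for C3ar1 (-0.0847). With a library left out, Masp1 ran between -0.0385 and 0.34, C8a between -0.24 and 0.0401, C8b between -0.0193 and 0.26 and C3ar1 between -0.21 and 0.49. With the replicate block, C8a was 0.0401 and C3ar1 -0.0083. The block leaves out PTH 4, which has no partner. Same-numbered libraries did not deviate together, with correlations of -0.031, -0.156 and 0.01 for numbers 1 to 3, so the numbers are not taken as pairs. The cause of these shifts was not tested. Low depth limits C3ar1, C5ar1 and Cd59a most, with as few as 5 or 6 estimated reads in a library.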
